A study of Mus musculus with 3 samples.

Results

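The Kruppel-like factors are a family of zinc finger transcription factors, and 10 of their genes were followed here: Klf2, Klf3, Klf4, Klf6, Klf7, Klf9, Klf10, Klf12, Klf13 and Klf16. They were taken by symbol from 24411 genes tabulated for microglia of adult mice, where the family had 17 rows in all. The libraries formed 1 group, labelled cKO with the treatment Pu.1 inhibitor, with tissue brain, strain C57BL/6J and an age of 6 to 8 weeks. Per the series design, cKO mice carried Mir137loxP/loxP and Tmem119-CreERT2, so that 7 daily tamoxifen injections, begun at an age of 7 to 8 weeks, were to remove Mir137 from cells that express Tmem119. The labelled age and this schedule differ, and the agent, dose and time of the inhibitor of Pu.1, a transcription factor that myeloid cells require, are not named in the labels. The group has 3 replicates. The design text gives 4 mice for the isolation of microglia but not which animals entered which replicate, so the spread between replicates may be technical. Neither knockout cells without the inhibitor nor cells with intact Mir137 were analysed here. The values are therefore levels under the combined condition, from which neither the Mir137 loss nor the inhibitor can be assigned any change.

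Kruppel-like factors bind GC-rich and CACCC sequences in promoters through C2H2 zinc fingers at the C-terminal end of the protein, and the rest of the protein recruits activators or repressors. KLF2 and KLF4 are known for restraining inflammatory gene expression in macrophages and endothelial cells, KLF6 for promoting it in macrophages, and KLF3 and KLF12 for repression with CtBP proteins. KLF9, KLF10, KLF13 and KLF16 are known to bind the Sin3A corepressor. Several members are early response genes, whose transcripts appear soon after a stimulus.

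The libraries held between 15710750 and 17180404 estimated counts. The 10 markers of microglia were all detected, meaning an FPKM (fragment count scaled to library size and transcript length) of at least 1 in every library, and their summed level was 13394 to 13980 FPKM. The 12 endothelial, 10 neutrophil and 8 monocyte or border macrophage markers were all detected as well, with sums of 2121 to 2279, 14126 to 15607 and 486 to 560 FPKM. Most of the neutrophil sum came from S100a8, at 8800 ± 567 FPKM. As a mean share of all counts, without regard to length, the microglia list held 3.03%, the endothelial list 0.330% and the neutrophil list 0.326%. All 6 astrocyte and all 6 oligodendrocyte markers were detected, at sums of 154 to 170 and 284 to 338 FPKM, and 7 of 9 mural and fibroblast markers, at 251 to 277 FPKM. Of the lymphocyte markers 3 of 8 were detected, at a sum of 15.3 to 21.3 FPKM, most of it from Gzma at 10.2 ± 3.07 FPKM, and of the neuronal markers 2 of 6, at a sum of 5.27 to 6.63 FPKM with Nefl at 0. In bulk RNA, fewer cells of a type and less RNA per cell cannot be told apart, and the part of these other cells in the levels of Kruppel-like factors was not tested. Mir137 was listed at 0 in each library, which does not check the deletion, since 0 of 1179 microRNA rows had a count. Tmem119, whose promoter drives the recombinase, was at 172, 173 and 155 FPKM in replicates 1, 2 and 3, and Spi1, which encodes Pu.1, at 187, 191 and 182 FPKM.

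The zinc fingers define the family, so the end of the coding sequence, which encodes most of the finger region, is shown for a pair of members. The stretch was set by length, was not matched to finger boundaries, and begins within the first finger. The last 243 bases of the coding sequence, 81 codons before the stop, were compared for Klf2 and Klf4, whose proteins both act in macrophages and endothelium. They are shown here 5′ to 3′ from the GENCODE M21 transcripts (GRCm38), with capitals at the bases that differ between the pair. The Klf2 stretch lies within chr8:72320173-72320916 on the plus strand and the Klf4 stretch within chr4:55528128-55529787 on the minus strand, introns included.
Klf2: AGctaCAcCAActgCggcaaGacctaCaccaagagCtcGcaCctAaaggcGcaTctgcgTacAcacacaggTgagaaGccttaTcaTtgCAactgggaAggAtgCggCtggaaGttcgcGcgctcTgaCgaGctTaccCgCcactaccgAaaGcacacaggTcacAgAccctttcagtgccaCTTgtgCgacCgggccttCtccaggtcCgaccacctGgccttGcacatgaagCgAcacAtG
Klf4: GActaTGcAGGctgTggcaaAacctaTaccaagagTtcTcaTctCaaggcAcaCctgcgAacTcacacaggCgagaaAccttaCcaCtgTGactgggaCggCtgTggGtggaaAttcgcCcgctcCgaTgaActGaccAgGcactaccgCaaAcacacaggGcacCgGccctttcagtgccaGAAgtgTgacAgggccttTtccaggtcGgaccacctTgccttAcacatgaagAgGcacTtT
These stretches were identical at 77.8% of bases and differed at 54.

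In local alignments of whole coding sequences, Klf6 and Klf7 were identical at 81.9% of 259 aligned bases, Klf3 and Klf12 at 78.4% of 287, Klf2 and Klf4 at 76.3% of 304, and Klf13 and Klf16 at 76.3% of 245. Across the 45 pairs of members, the longest run of identical bases was 26, shared by Klf6 and Klf7. Every deposited count of the 17 Klf rows was a whole number with a tolerance of 0, whereas by the same measure 4.07% of all values in the count table were not whole, as when a read is divided between genes.

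Klf2, Klf6 and Klf4 were the most abundant members in FPKM and in CPM (the count scaled to library size alone), and all 10 members were detected. Over all tabulated genes 47.8% were detected. The median over the members of log2(FPKM + 1) was 4.55 ± 0.07 (SD, n = 3), against 0.95 ± 0.02 over all genes. Of the other 7 Klf rows 3 were detected, with a median of 0.27 ± 0.14. The members were chosen with earlier results of these data known, so neither comparison with all genes is a test of the family. The highest and the lowest member, Klf2 and Klf16, differed 52.7-fold in mean FPKM. Summed over the 10 members the level was 857, 818 and 850 FPKM in replicates 1, 2 and 3.

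Klf2 (GRCm38 chromosome 8, 72319033 to 72321656), which in endothelium is induced by laminar blood flow and in T cells maintains quiescence, had 351, 344 and 329 FPKM in replicates 1, 2 and 3. Its mean of 341 ± 11.3 FPKM (SD, n = 3, as for all levels given in this form) placed it at rank 218 of all genes. Replicate 3 was the lowest of the libraries for Klf2.

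Klf6 (chromosome 13, 5861482 to 5870394), an early response gene expressed in most tissues, had 272, 256 and 280 FPKM, a mean of 269 ± 12.2 FPKM and rank 281. In every library it lay below Klf2, and the FPKM ranges of the pair did not overlap. Klf2 stood at 1.27 ± 0.086 times Klf6 (SD, n = 3).

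Klf4 (chromosome 4, 55527143 to 55532466), a reprogramming factor that also drives monocyte differentiation, had 100, 91.7 and 99.2 FPKM. Its mean of 97.0 ± 4.6 FPKM was at rank 785, and Klf6 stood at 2.78 ± 0.057 times Klf4. Replicate 2 was lowest for Klf4, as it was for Klf6.

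Klf3 (chromosome 5, 64803388 to 64832901), a repressor that binds CtBP, had 54.1, 46.7 and 51.8 FPKM, with a mean of 50.8 ± 3.79 FPKM. Klf13 (chromosome 7, 63886351 to 63938915), known as an activator of Ccl5 in T lymphocytes, followed at 28.6, 28.1 and 31.0 FPKM, with a mean of 29.2 ± 1.56 FPKM. The ranges of Klf4, Klf3 and Klf13 were separate from each other in all 3 libraries.

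Klf9 and Klf10 lay close together. Klf9 (chromosome 19, 23141226 to 23168134), a gene induced by glucocorticoid and thyroid hormone, had 16.57, 16.96 and 17.94 FPKM, with a mean of 17.2 ± 0.71 FPKM. Klf10 (chromosome 15, 38291463 to 38300706), first described as a gene induced early by TGF-beta, had 16.0, 14.1 and 18.2 FPKM, with a mean of 16.1 ± 2.04 FPKM. Klf9 was the higher in replicates 1 and 2 and Klf10 in replicate 3, so this pair had no fixed order in FPKM. In CPM, Klf9 was the higher in all 3 libraries, at 1.15 ± 0.12 times Klf10.

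The lowest 3 members were Klf7, Klf12 and Klf16. Klf7 (chromosome 1, 64029447 to 64122282), known for its part in axon growth, had 7.55, 7.74 and 7.76 FPKM, with a mean of 7.68 ± 0.12 FPKM. Klf12 (chromosome 14, 99870632 to 100284679), a repressor of the AP-2 alpha gene, had 6.33, 7.34 and 7.15 FPKM, with a mean of 6.94 ± 0.54 FPKM. Klf16 (chromosome 10, 80567124 to 80577321), a repressor that acts with Sin3A, had 5.28, 5.78 and 8.38 FPKM, with a mean of 6.48 ± 1.66 FPKM. In replicates 1 and 2 it was the lowest member, whereas in replicate 3 it exceeded both Klf12 and Klf7.

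Of the 9 pairs of neighbours in this order, 7 had the same gene higher in all 3 libraries with ranges that did not overlap, and the exceptions were Klf9 with Klf10 and Klf12 with Klf16. Exact two-sided sign-flip permutation tests of the log2 ratio gave p = 0.25 for those 7, the smallest that 3 libraries allow, and p = 0.50 for the exceptions (Benjamini-Hochberg adjusted 0.32 and 0.50 over the 9 pairs). No pair could therefore pass 0.05 in this design.

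**Figure D1:**
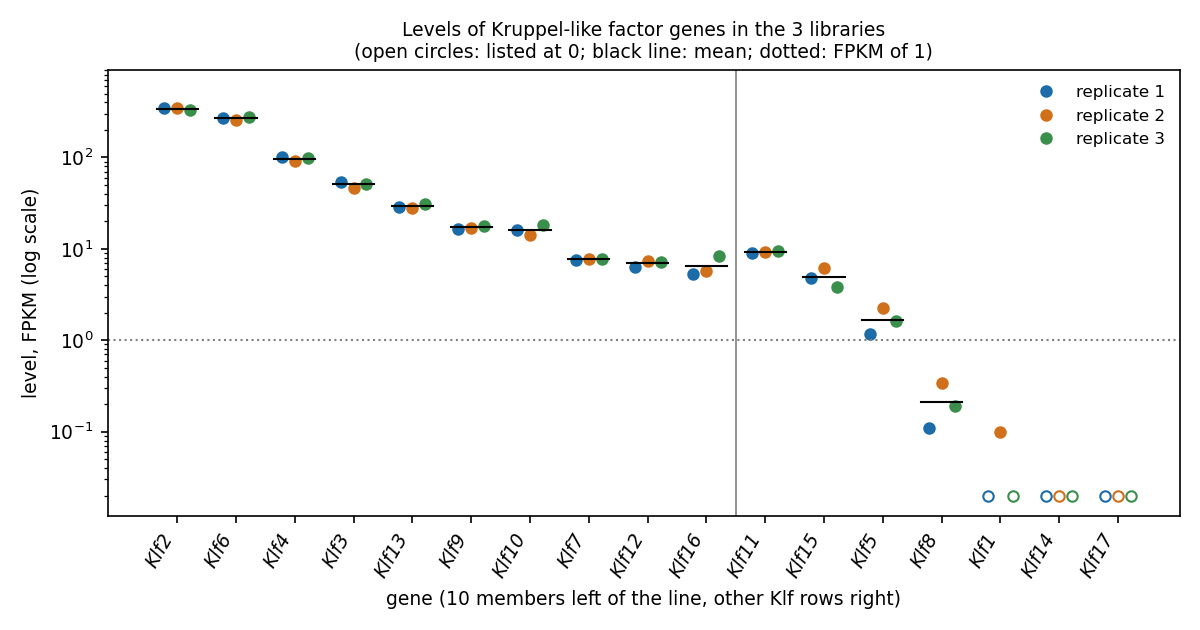
FPKM on a log axis for the 10 members and the other 7 Klf rows, with 1 point per library and a black line at the mean where it exceeds 0.1. Klf2 and Klf6 lie above 250 FPKM in every library, Klf11 lies above the lowest 3 members, and Klf14 and Klf17 are listed at 0.

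The other 7 rows of the family were low, and only Klf11 and Klf15 reached the level of any member in any library. Klf11, a relative of Klf10 that also responds to TGF-beta, had 8.93, 9.29 and 9.48 FPKM, above Klf7, Klf12 and Klf16 in each library. Klf15, a glucocorticoid-induced regulator of metabolism, was at 4.91 ± 1.19 FPKM and Klf5, known from epithelium and smooth muscle, at 1.68 ± 0.54 FPKM. The remaining 4 rows were under the detection limit. Klf8 had 8, 22 and 13 counts in replicates 1, 2 and 3, and Klf1, the erythroid member, had 0, 2 and 0 counts. Klf14 and Klf17 had 0 counts throughout, which allows up to 0.175, 0.191 and 0.183 CPM in replicates 1, 2 and 3, limits of 3 counts that cover counting error only.

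FPKM depends on the length each gene is given, and this mattered for 3 members. The effective length behind the deposited FPKM, recovered from count, FPKM and library total, was 1055 nt for Klf7, 2033 nt for Klf3 and 2981 nt for Klf9. The longest coding transcripts in GENCODE M21 are 7662, 5221 and 4486 nt long for these genes, which is 7.26, 2.57 and 1.5 times as much. For the other 7 members that factor was 1.05 to 1.20. With CPM divided by the length of the longest transcript, Klf7 was at 1.06 ± 0.015 and Klf3 at 19.8 ± 1.47 CPM per kb. Klf7 was then the lowest member and Klf3 stood below Klf13, at 28.0 ± 1.46 CPM per kb. On this scale Klf10 exceeded Klf9 in all 3 libraries, at 1.29 ± 0.13 times its level, so that the order of this pair depended on the unit and the length. The authors' annotation, and so the set of transcripts behind these lengths, is not named in the labels.

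**Figure D2:**
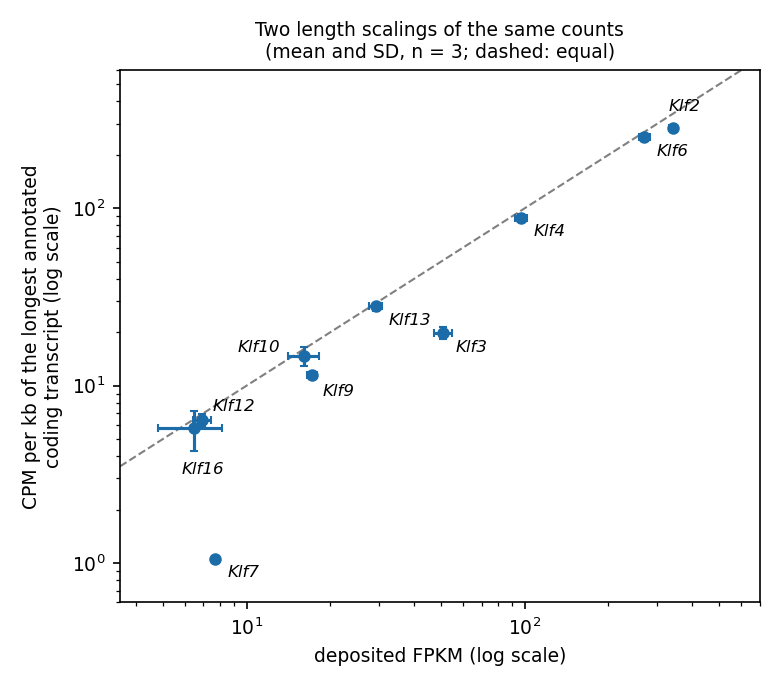
Mean deposited FPKM of each member against CPM per kb of its longest annotated coding transcript, both on log axes, with SD over 3 libraries. Klf7 and Klf3 lie farthest below the dashed line of equality, and Klf2, Klf6 and Klf4 stay highest on both axes.

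Klf2 and Klf6 made up most of the family's signal. In the summed FPKM of all 17 rows, Klf2 took 39.8 ± 1.60%, Klf6 31.4 ± 0.89% and Klf4 11.3 ± 0.29% (SD, n = 3). Together these 3 genes took 82.9, 82.7 and 81.8% in replicates 1, 2 and 3, and the other 7 rows outside the members took 1.88 ± 0.25%. In CPM, which counts fragments without regard to length, Klf6 took 45.3 ± 0.72% and Klf2 22.4 ± 1.17%. The order of this pair thus depended on the unit: Klf6 had 18383, 15828 and 18036 counts and Klf2 9262, 8277 and 8261, over effective lengths of 3936 and 1535 nt. Klf4 had almost the same share in CPM as in FPKM, 11.5 ± 0.24%.

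**Figure D3:**
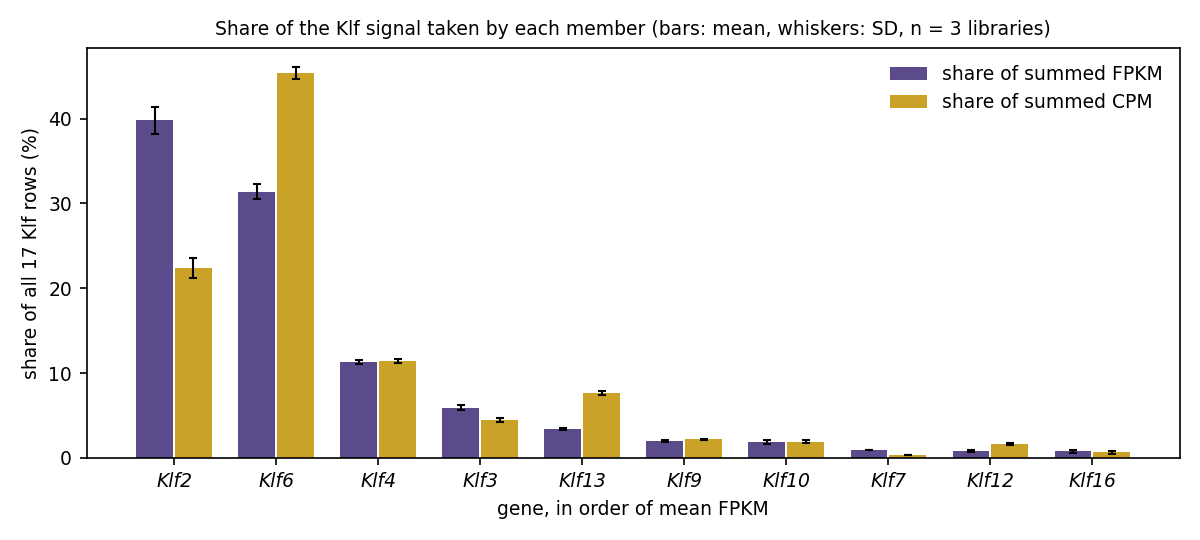
Mean share of the summed FPKM and of the summed CPM of all 17 Klf rows taken by each member, with SD over 3 libraries. Klf2 is highest in FPKM at 39.8% and Klf6 in CPM at 45.3%.

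The replicates differed little for most members. The coefficient of variation of TMM-normalised CPM over the 3 libraries was 1.39% for Klf7, 3.39% for Klf2, 4.01% for Klf9, 4.42% for Klf6, 4.67% for Klf4 and 5.21% for Klf13. It was 7.44% for Klf3, 7.78% for Klf12, 12.6% for Klf10 and 25.6% for Klf16. Counting error alone would give an expected 0.76% at the mean count of Klf6 and 8.67% at that of Klf7. The observed value was above the expected one in 9 of the 10 members, Klf7 being the exception. Over 3 libraries it can lie above by counting error alone, and the share over all genes was not computed. For Klf9 it was 4.01% against 3.45%, and the homogeneity test below called neither Klf9 nor Klf12. The exact Poisson 95% interval of a count spanned 1.45 to 1.56% of the count to either side for Klf6 and 17.1 to 17.7% for Klf7.

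A chi-square test of homogeneity over 13246 genes, Benjamini-Hochberg adjusted, called 41.4% of all genes different between libraries at 0.05 and 7 of the 10 members. This test compares libraries and not conditions, and it reaches smaller differences at higher counts. The share called among genes of like count was not computed, so these shares do not rank the members against other genes. By the BCV, edgeR's estimate of spread beyond counting error, Klf2, Klf6, Klf4 and Klf13 lay at percentiles 2.34, 3.48, 5.556 and 8.169 of tested genes. Klf3, Klf9, Klf12 and Klf10 lay at 18.96, 29, 39.64 and 42.48, and Klf16 and Klf7 at 69.67 and 71.98. Klf6 had the smallest adjusted p, 3.29e-13, with CPM of 1071, 1010 and 1102 in replicates 1, 2 and 3, which is a spread of only 1.09-fold. Klf16 had an adjusted p of 1.15e-06 and the widest spread among the members, with 12.5, 13.7 and 19.9 CPM. Its replicate 3 stood 1.59-fold above replicate 1, and without replicate 3 the adjusted p of Klf16 was 0.53. Klf10 (44.4, 39.3 and 50.5 CPM, adjusted p = 1.19e-04) was likewise highest in replicate 3.

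The other called members were Klf2 (adjusted p = 3.51e-04), Klf4 (5.78e-04), Klf3 (6.58e-04) and Klf13 (0.0020). Klf12, Klf9 and Klf7 were not called, with adjusted p of 0.052, 0.35 and 0.98. Of the 10 members, 5 were lowest in replicate 2, as were 35.9% of 11672 detected genes with a row in both tables, and 6 were highest in replicate 3, as were 34.2% of those genes. The summed FPKM of 8 of the 9 lists of cell type markers was highest in replicate 2. The mural and fibroblast list was the exception, with its highest sum in replicate 3. FPKM summed over all genes was also highest in replicate 2. With FPKM rescaled to the same total in each library (TPM), Klf2 had 654, 613 and 622 in place of 351, 344 and 329. The part of this scaling in the count of lists was not tested. The list of immediate early and dissociation response genes had sums of 12349, 12156 and 12470 FPKM in replicates 1, 2 and 3, lowest in replicate 2 and highest in replicate 3. The part of these lists in the spread of the members was not tested. Without replicate 2, Klf3, Klf4 and Klf10 were not called, and the share called over all genes was 18.6%. Without replicate 3, Klf2, Klf10, Klf13 and Klf16 were not called, and the share over all genes was 23.5%. Without replicate 1 the same 7 members were called, with 28.2% of all genes, and Klf6 was called whichever library was left out. Klf12 was called without replicate 3 (adjusted p = 0.041).

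**Figure D4:**
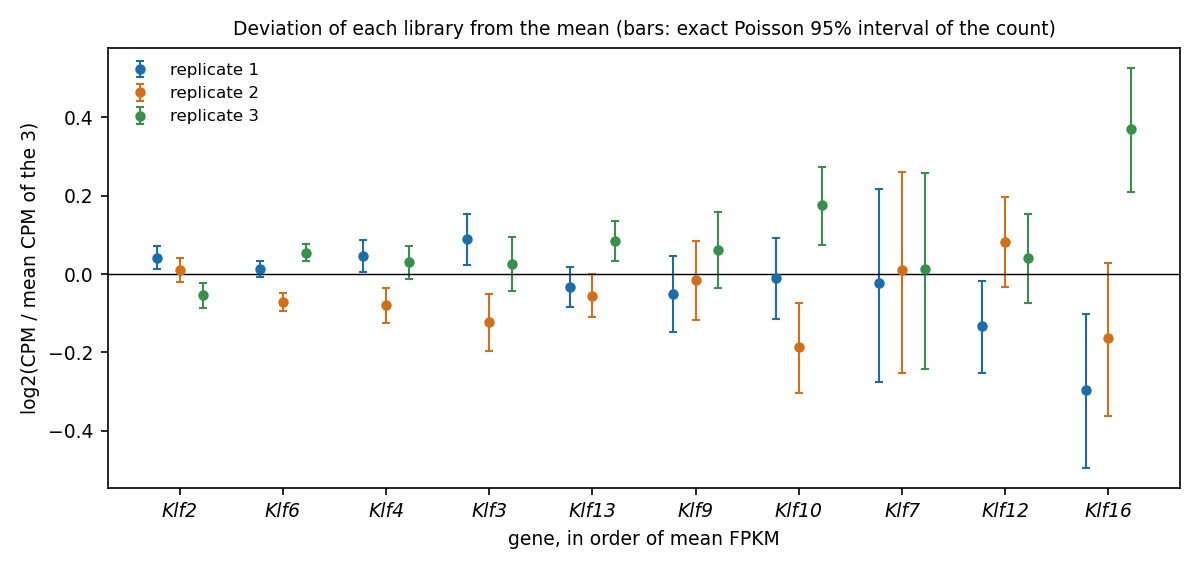
Log2 ratio of each library's CPM to the mean of the 3 for each member, with exact Poisson 95% intervals of the count. Klf16 in replicate 3 lies farthest from the mean, and the intervals of Klf7 all cover 0.

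Reads of overlapping genes could be checked in part. Klf2, Klf4, Klf6, Klf10 and Klf16 overlap no other gene in GENCODE M21, and the other 5 members overlap 10 genes, 7 of them on the opposite strand. Only 3 of these 10 had a row in the count table. Mir6899 within Klf7 and Mir1192 within Klf9 had 0 counts, which checks nothing, since 0 of 1179 microRNA rows had a count. E030018B13Rik within Klf13 had 0, 3 and 1, against 3001, 2698 and 3101 for Klf13. Strand was not stated, so reads of the other overlapping genes could not be told apart from those of Klf3, Klf7, Klf12 and Klf13.

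Genes of the pathway that feeds Klf2 and Klf4 were all detected (7 of 7). In endothelium the kinase ERK5, encoded by Mapk7 and activated by MEK5, phosphorylates MEF2 factors that bind the Klf2 promoter. Mef2a was the highest at 183 ± 12.4 FPKM and Mapk7 itself the lowest at 10.9 ± 1.52 FPKM.

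The promoter of Klf2 is shown because it held a match to the MEF2 motif, CTANNNNTAG. It is given from RefSeq, GRCm38, plus strand, chr8:72318812-72319032, up to the annotated start of the gene, with that match and a TGACG match, the core of a cyclic AMP response element, in capitals.
Klf2: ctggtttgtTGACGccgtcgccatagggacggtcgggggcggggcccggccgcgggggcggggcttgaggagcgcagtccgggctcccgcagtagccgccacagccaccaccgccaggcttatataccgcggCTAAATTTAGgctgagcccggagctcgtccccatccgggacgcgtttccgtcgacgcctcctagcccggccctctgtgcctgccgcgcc
The match CTAAATTTAG ended 108 bases before the RefSeq start. The printed sequence stops at the GENCODE M21 start of the gene, whereas the bases before the RefSeq start run on to chr8:72319061. Promoters of 8 of the 10 members were matched in the RefSeq table, those of Klf10 and Klf16 being the exceptions. The 250 bases before the RefSeq start were searched on both strands for 8 motifs. For Klf7 (chr1:64121390-64121639) and Klf12 (chr14:100149797-100150046) these bases lie wholly inside the gene as annotated in GENCODE M21, downstream of its start. Both genes are counted among the 8 below.

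MEF2 matches occurred in 1 of the 8 promoters, that of Klf2, and in 3.70% of the promoters of 27025 genes. TGACG, which the full element TGACGTCA contains, occurred in 5 of 8 (Klf2, Klf4, Klf9, Klf12 and Klf13), against 19.8% of all genes and 30.8% of detected genes. The full element occurred in none of the 8 and in 1.77% of all genes. GC boxes (GGGCGG) occurred in 6 of 8, against 35.4% of all and 64.0% of detected genes, and CACCC in 6 of 8, against 54.5 and 61.2%. A loose AP-1 pattern, TGANTCA with any base in the middle, was found for Klf9 as TGAATCA, against 7.82% of all and 5.28% of detected genes. The Pu.1 motif GAGGAAGT was found in none of the 8, against 2.79% of all genes, and the CArG box in none, against 1.62%. A match is a string of letters in this window and not a measured binding site.

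Reported targets of KLF2 and KLF4 in endothelium, lymphocytes and macrophages were mostly detected (14 of 16), with a median of log2(FPKM + 1) of 4.30 ± 0.16. The sphingosine phosphate receptor gene S1pr1 was the highest at 91.6 ± 6.28 FPKM. The lowest was Arg1, the arginase of alternatively activated macrophages, at 0.27 ± 0.17 FPKM, and Nos2, the inducible nitric oxide synthase, was the other gene below the detection limit.

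Genes of the glucocorticoid response, to which Klf9 belongs, were abundant. All 7 were detected, with a median of log2(FPKM + 1) of 7.35 ± 0.00036. This median was the value of the same gene in each library, so its SD does not describe the spread of the list. The highest was the phosphatase gene Dusp1 at 1848 ± 16.1 FPKM and the lowest Zbtb16 at 4.15 ± 0.45 FPKM. A list of 18 immediate early and dissociation response genes, with Dusp1 and heat shock genes among them, was also wholly detected. Its median was 8.73 ± 0.03 and its sum 12156 to 12470 FPKM. Klf4 and Klf6 are early response genes too, and the relation of their levels to those of this list, or to the isolation of the cells, was not tested.

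All 8 genes of the TGF-beta pathway, which induces Klf10, were detected, from the receptor gene Tgfbr1 at 603 ± 24.5 to Smad2 at 10.9 ± 0.68 FPKM. All 9 corepressor genes were detected, and the highest was Ctbp1, whose product is the partner of KLF3 and KLF12, at 67.5 ± 1.15 FPKM. Among the Sp factors, the closest relatives of the family, 4 of 9 were detected. Sp3 was the highest at 54.5 ± 5.01 FPKM and Sp7 the lowest at 0.043 ± 0.051 FPKM, so that Klf2, Klf6 and Klf4 each exceeded every Sp gene in every library.

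**Figure D5:**
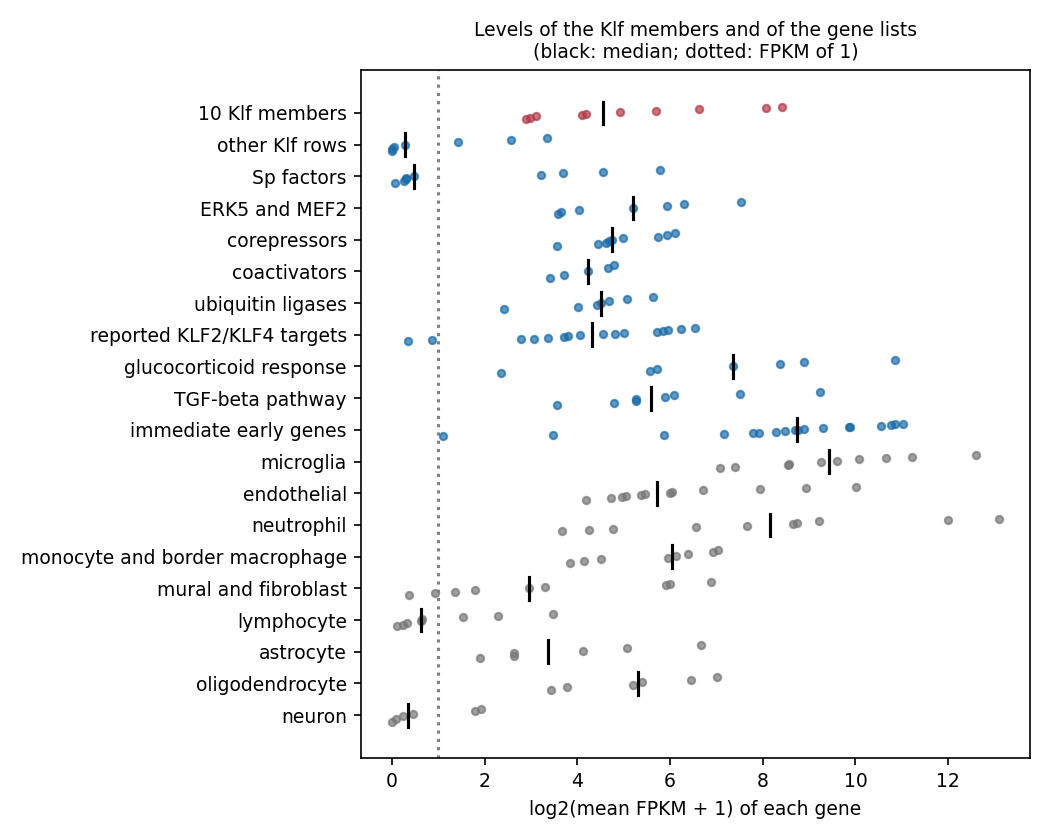
Log2(mean FPKM + 1) of each gene in the 10 members, in lists of related genes and in lists of cell type markers, with the median of each list in black. The members run from 6.48 FPKM for Klf16 to 341 FPKM for Klf2, and the microglia list reaches higher and the Sp list lower.

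The microRNA targeted by the labelled deletion had seed matches in 2 members, Klf12 and Klf13. The mature sequence of miR-137-3p, the arm whose seed was searched, is shown with its seed, bases 2 to 8, in capitals (RefSeq, GRCm38, chr3:118433901-118433923, plus strand).
miR-137-3p: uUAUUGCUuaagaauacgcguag
In the longest annotated 3′ UTR of each member, the 7 bases that pair with this seed, AGCAATA, occurred in Klf12, at 2 places, and in Klf13, at 1 place. That is 2 of 10 members, against 9.67% of 21005 genes and 10.3% of the detected genes.

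These UTRs were long, 4501 nt for Klf12 and 5157 nt for Klf13, against a median of 961 nt over all genes. Over the UTRs of all 10 members the density was 0.097 sites per kb, against 0.075 over all genes. The 3 sites are shown in 30 bases each on the minus strand, with the match in capitals. The first Klf12 site lies at chr14:99874083-99874112, the second at chr14:99873519-99873548, and the Klf13 site at chr7:63887871-63887900.
Klf12 site 1: ttgaggagaaaAGCAATAAtgaatagaagg
Klf12 site 2: tgtacaggaaaAGCAATAtatccccccaac
Klf13 site: agactaacctgAGCAATAgcttggcctcgt
The first Klf12 site extends to the 8-base match AGCAATAA. Klf12 and Klf13 were at 6.94 ± 0.54 and 29.2 ± 1.56 FPKM. Cells that have Mir137 were not analysed here, so these sites were not tied to any change in level. The other 8 members, Klf2, Klf6 and Klf4 among them, had no match in their longest annotated 3′ UTR.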

How the data were processed

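Total RNA of mouse microglia was sequenced in 3 libraries of 1 group. The authors deposited estimated counts per gene, not normalised, and FPKM per gene, scaled to library size and effective length. The tools named in the submitters' processing notes are STAR 2.7.9a, DESeq2 and RSEM, with builds GRCm38 and mm10. Their settings, the annotation and the use of strand are not stated there. There were 0 columns of other samples. Counts were rounded, filtered with the default of edgeR 4.0.16 (R 4.3.3), which left 13246 genes, and TMM-normalised; the chi-square test of homogeneity used effective library sizes with Benjamini-Hochberg adjustment over all genes and was tested on simulated data. No test between groups was possible with 1 group. Levels of lists used a pseudocount of 1. The named genes were the 10 members, the other Klf rows, the highest and lowest member of each pathway list, and Spi1, Mir137 and Tmem119, except that some list genes are not reported here; Nos2 was named after its values were seen, as were the overlapping genes. Members and lists were chosen with earlier results of these data known. The promoter motifs were not part of the planned design and were chosen with the levels known. Gene coordinates, transcripts and UTRs came from GENCODE M21 (GRCm38), 1-based, and a protein comparison was replaced by one of coding sequences. Depth was 15710750 to 17180404 counts per library, and intervals cover counting error only. Alternatives were other scalings and lengths, filters, thresholds and leaving out each library, with DESeq2 1.42.0 for its size factors.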

Additional observations from a re-analysis of the deposited data

How the results depend on the processing

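The share of Klf2 and Klf6 in the family was 71.2% in FPKM and 67.7% in CPM, and 70.9 to 71.6% with 1 library left out. The number of members called different between libraries was 7 with TMM, with DESeq2 size factors, with library totals and without the filter, and 4 to 7 with 1 library left out. Over all genes the test called 5485, against 2498 to 3780 with 1 library left out, where fewer samples were compared. With an 8-base in place of a 7-base seed match, 1 member in place of 2 had a match, against 4.08% in place of 9.67% of all genes. With a detection limit of 10 FPKM, 7 members in place of 10 passed, and the share of all genes at that limit was not computed. The median over detected genes was 13.1 FPKM, and 7 members lay above it. The 3 members whose level moved most with the annotated transcript length were Klf7, Klf3 and Klf9. No paired analysis was possible because there was only 1 group. Depth limits the precision of Klf7 and Klf16, the members with the fewest counts.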

Other observations

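Cofactors and regulators of protein turnover of the family were expressed at moderate levels. All 5 coactivator genes were detected, and the lowest was the acetyltransferase gene Crebbp at 9.65 ± 1.07 FPKM (SD, n = 3). All 7 genes of ubiquitin ligases and related factors were detected, from Vhl at 48.9 ± 3.70 to Fbxw7, which targets several transcription factors for degradation, at 4.38 ± 0.29 FPKM. The median of log2(FPKM + 1) was 4.24 ± 0.10 for the coactivators and 4.52 ± 0.04 for the ligases, against 4.55 ± 0.07 for the 10 members.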
